A study of Mus musculus with 2 samples.

Results

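The genes of 8 receptors that guide leukocyte migration, together with Rgs1, a gene for a protein that shortens the signals of such receptors, were followed in nucleoplasmic RNA of mouse macrophages. The 9 genes are Ccr1, Ccr2, Ccr7, Ccrl2, Cx3cr1, Cxcr4, Fpr1, Fpr2 and Rgs1. They were taken by symbol from the 55536 annotated genes, and all 9 were found in both libraries and in both deposited quantifications. The cells were primary bone marrow-derived macrophages of C57BL/6J mice. They had received lipid A, the moiety of bacterial lipopolysaccharide sensed through the receptor TLR4, at 100 ng/ml for 12 h, then no lipid A for 12 h, then 100 ng/ml again for 90 min. Both libraries belong to this 1 group, and no untreated or singly treated cells and no cytoplasmic RNA were analysed here, so the values are levels and not responses to lipid A. The fraction is called nucleoplasmic in one label and nuclear in others. Ribosomal RNA was depleted before sequencing. Replicate 1 started from 1 µg of RNA and replicate 2 from 500 ng. Both are called biological replicates, yet both carry the same donor entry. Whether the cultures came from separate animals is not stated, so the spread between the replicates may be technical.

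The receptors encoded by these genes span the membrane with a bundle of helices and, apart from the atypical Ccrl2, signal through Gi-type heterotrimeric G proteins. A bound ligand sets the Gα subunit in its GTP-bound state, and the released subunits steer the cytoskeleton so that the cell moves up a gradient. Regulators of G protein signalling (RGS proteins) such as Rgs1 speed up GTP hydrolysis by Gα and so end the signal. Macrophages and monocytes are known to use Ccr2 and Ccr1 to reach inflamed tissue and the formyl peptide receptors Fpr1 and Fpr2 to find bacteria and damaged cells.

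The libraries held 29400104 gene counts in replicate 1 and 17789543 in replicate 2. All 10 macrophage markers reached 1 TPM (a level per transcript length, scaled to the library) in both libraries, with summed levels of 1665 and 2298 TPM and Lyz2, the lysozyme gene, highest. Of the markers of other cells, 2 of 4 for monocytes reached 1 TPM in both libraries (summed 4.46 and 5.35 TPM, Ly6c2 highest). None of the 9 for neutrophils did (0.99 and 1.31 TPM, S100a9 highest), and Ly6g, Elane and Retnlg were at 0 counts. For dendritic cells 2 of 9 did (5.18 and 6.54 TPM, Ccl22 highest), and Cd209a and Ccl17 were at 0. None of the 8 for lymphocytes did (0.07 and 0.13 TPM, Cd79a highest), and Cd3e, Cd3g, Trac, Ncr1 and Klrb1c were at 0. In bulk RNA, fewer cells that express a gene and less RNA per cell cannot be told apart.

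The 9 genes fell into 3 levels. Rgs1 stood highest, at 262.55 TPM in replicate 1, against 167.27 in replicate 2. Ccrl2, Fpr2 and Fpr1 followed at 20 TPM or more in both libraries. Ccr1, Cxcr4, Ccr2, Ccr7 and Cx3cr1 lay below 7 TPM. Rgs1 alone made up 58.0% of the summed TPM of the 9 genes in replicate 1 and 52.4% in replicate 2. Of the 9, 7, all but Ccr7 and Cx3cr1, were at 1 TPM or more in both libraries, as were 8512 of 22028 protein-coding genes (38.6%).

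**Figure D1:**
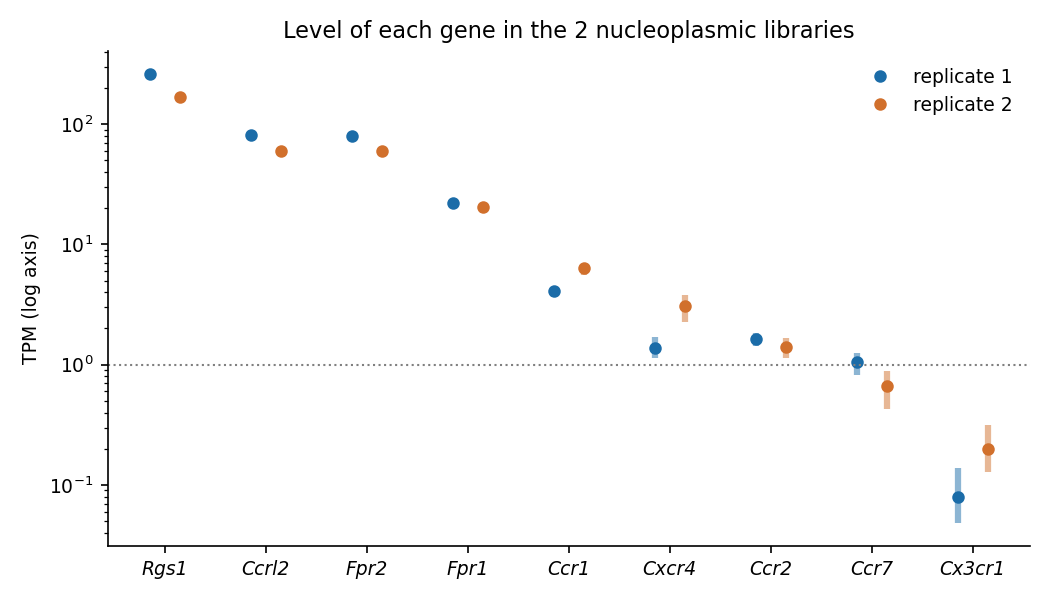
Level of each of the 9 genes in replicate 1 and replicate 2, in TPM on a log axis. Points are libraries, pale bars are the authors' deposited credibility intervals, and the dotted line marks 1 TPM. Rgs1 is highest in both libraries of this first quantification and Cx3cr1 is lowest in both.

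Neighbours in this order were set apart by whether their libraries overlapped. Ccrl2 and Fpr2 overlapped, as did Cxcr4 and Ccr2, so the order within each of these pairs is not fixed by the data. The other neighbours did not overlap: the lower Rgs1 library, at 167.27 TPM, lay above the higher Ccrl2 library, at 81.13 TPM, and the lower Fpr2 library, at 60.34 TPM, lay above the higher Fpr1 library, at 22.0 TPM. With 2 libraries this describes the spread and is no test. The order of the lower genes also depended on the method: in the second quantification Ccr7 had the lowest mean, at 0.417 TPM, and Cx3cr1 averaged 1.17 TPM.

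Fpr2 and Fpr1 encode receptors for peptides that begin with formylmethionine, as bacterial and mitochondrial proteins do. In humans FPR2 also binds serum amyloid A and annexin A1. Fpr2 (ENSMUSG00000052270.7, chr17:17887824-17893952 on mm10, plus strand) was at 79.13 TPM in replicate 1, against 60.34 in replicate 2 (mean 69.7 ± 13.3 TPM, SD, n = 2), and had 3294.66 and 1289.73 expected counts. Fpr1 (ENSMUSG00000045551.7, chr17:17876471-17883940, minus strand) was at 22.0 TPM in replicate 1, against 20.65 in replicate 2 (mean 21.3 ± 0.955 TPM, SD, n = 2), and had 1185 and 591 expected counts. Their starts lie 3883 bases apart and point away from each other. Fpr2 exceeded Fpr1 in both libraries, by 3.60 times in replicate 1 and 2.92 times in replicate 2 as TPM, and by 4.24 and 3.36 times in the second quantification.

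How far reads could tell these genes apart was measured on the annotated transcripts. The coding sequences of Fpr1 and Fpr2 are identical at 736 of 1035 aligned bases (71.1%). Their longest common run holds 50 bases, shown here in capitals with 10 bases on each side to show how soon they part. The Fpr1 stretch covers coding bases 387 to 456 and the Fpr2 stretch coding bases 363 to 432, counted from the A of the start codon.
Fpr1: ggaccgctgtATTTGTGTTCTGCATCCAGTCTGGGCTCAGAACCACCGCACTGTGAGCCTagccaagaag
Fpr2: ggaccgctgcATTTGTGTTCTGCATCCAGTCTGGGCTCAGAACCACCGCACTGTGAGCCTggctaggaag
Of the 1294 different 31-base words in Fpr1 transcripts, 20 (1.55%) also occurred in another gene. In Fpr2 557 of 1295 did (43.0%), 487 of them in Gm5966, a pseudogene annotated as 2 overlapping entries. The model behind the expected counts gave these entries together 65.3 counts in replicate 1 and 27.3 in replicate 2. This is 1.94% and 2.07% of the counts of Fpr2 and Gm5966 together. All Gm5966 counts lay on the unprocessed entry in replicate 1 and on the processed entry in replicate 2. The level of Fpr2 therefore rests on how shared reads were split. The overlapping gene Fpr3 had 2 counts in replicate 1 and 0 in replicate 2.

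Fpr2 has 2 annotated transcripts. Fpr2-201, whose coding sequence lies in 1 exon, held 76.2% of the TPM of the gene in replicate 1, against 64.7% in replicate 2, and Fpr2-202, of 883 bases, held 23.8% and 35.3%. In the second quantification Fpr2-202 held 43.4% in replicate 1 and 53.4% in replicate 2, so the order of the transcripts turned round in replicate 2 with the method. Fpr1 has 1 annotated transcript.

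Ccrl2 encodes an atypical receptor that binds chemerin and presents it to the chemerin receptor Cmklr1 without signalling through G proteins itself. Ccrl2 (ENSMUSG00000043953.12, chr9:111054486-111057519, minus strand) was at 81.13 TPM in replicate 1, against 59.35 in replicate 2 (mean 70.2 ± 15.4 TPM, SD, n = 2), and had 6000 and 2504 expected counts. It was the highest of the chemokine-receptor family genes listed. The level of Ccrl2 exceeded that of Cmklr1, at 8.23 TPM in replicate 1, against 8.93 in replicate 2, by 9.86 and 6.65 times. In the second quantification the same ratios were 1.62 and 1.18, so their size depended on the method. The chemerin gene Rarres2 had 3 counts in replicate 1 and 7 in replicate 2. Among the 3 annotated Ccrl2 transcripts, which all carry the coding sequence in 1 exon, Ccrl2-203 had 63.6% of the gene's level in replicate 1, against 64.5% in replicate 2.

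Ccr1 encodes a receptor for Ccl3, Ccl5 and several other CC chemokines. Ccr1 (ENSMUSG00000025804.5, chr9:123962124-123968692, minus strand) was at 4.06 TPM in replicate 1, against 6.38 in replicate 2 (mean 5.22 ± 1.64 TPM, SD, n = 2), and had 518 and 432 expected counts. Ccr2 encodes the receptor for Ccl2, Ccl7 and Ccl12 through which monocytes leave the bone marrow. Ccr2 (ENSMUSG00000049103.14, chr9:124101950-124113557, plus strand) was at 1.65 TPM in replicate 1, against 1.40 in replicate 2 (mean 1.53 ± 0.177 TPM, SD, n = 2), and had 280.24 and 131.39 expected counts. Ccr1 exceeded Ccr2 by 2.46 times in replicate 1 and 4.56 times in replicate 2 as TPM, but by 1.49 and 1.83 times in the second quantification, where the libraries of the genes overlapped.

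Over whole transcripts 235 of 6745 Ccr2 words of 31 bases (3.48%) also occurred in other genes. Ccr1 shared 18 words (0.642%). The second quantification gave Ccr2 480 and 411 counts, and relative to library size these were 1.29 and 1.75 times those of the first. Ccr2-202, a single-exon transcript, led in the first quantification with 61.9% of the gene's level in replicate 1, against 41.5% in replicate 2. In the second, Ccr2-201 led with 44.9% in replicate 1 and 52.7% in replicate 2. The leading Ccr2 transcript is therefore not settled by these files.

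Cxcr4 encodes the receptor for Cxcl12, which holds leukocytes in the marrow. Cxcr4 (ENSMUSG00000045382.6, chr1:128588199-128592293, minus strand) was at 1.38 TPM in replicate 1, against 3.08 in replicate 2 (mean 2.23 ± 1.20 TPM, SD, n = 2), and had 107 and 98 expected counts. The deposited credibility intervals, whose level the headers do not give, ran from 1.15 to 1.70 TPM in replicate 1 and from 2.28 to 3.78 TPM in replicate 2, and did not overlap. The shorter Cxcr4-202 took no reads in replicate 1. In replicate 2 it held 39.6% of the gene's TPM but 22.0% of its expected counts, which is 21.55 counts.

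Ccr7 encodes the receptor for Ccl19 and Ccl21 that brings dendritic cells to lymph nodes. Ccr7 (ENSMUSG00000037944.8, chr11:99144196-99155077, minus strand) was at 1.05 TPM in replicate 1, against 0.66 in replicate 2 (mean 0.855 ± 0.276 TPM, SD, n = 2), and had 90 and 30 expected counts. It has 1 annotated transcript and shared no 31-base word with another gene. The dendritic cell markers summed to 5.18 and 6.54 TPM, as given above, and the part of such cells in the Ccr7 level was not tested.

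Cx3cr1 encodes the receptor for fractalkine, the product of Cx3cl1, and marks patrolling monocytes and many tissue macrophages. Cx3cr1 (ENSMUSG00000052336.7, chr9:119901616-120069879, minus strand) was the lowest of the 9 genes in the first quantification, at 0.08 TPM in replicate 1, against 0.20 in replicate 2 (mean 0.140 ± 0.0849 TPM, SD, n = 2), and had 13 and 18 expected counts. The second quantification gave 125 and 514 counts, and relative to library size these were 7.22 times the first in replicate 1 and 15.9 times in replicate 2. Across genes the median of this ratio was 1.03 in replicate 1 and 1.04 in replicate 2, and 1730 of 14831 genes (11.7%) were over 2-fold higher in the second quantification in both libraries. This comparison was added after the values were seen. Of the 9 genes only Cx3cr1 passed that limit. The gene as annotated spans 168264 bases and overlaps 9 other annotated genes, among them Csrnp1, which had 3000 counts in replicate 1 and 839 in replicate 2. Its transcripts shared 146 of 4446 words (3.28%) with 521 other genes. The part of these features in the difference between the methods was not tested. As TPM the second quantification put Cx3cr1 at 0.254 in replicate 1 and 2.08 in replicate 2, where it stood above Ccr7, Cxcr4 and Ccr2. The level and the rank of Cx3cr1 are therefore uncertain.

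**Figure D2:**
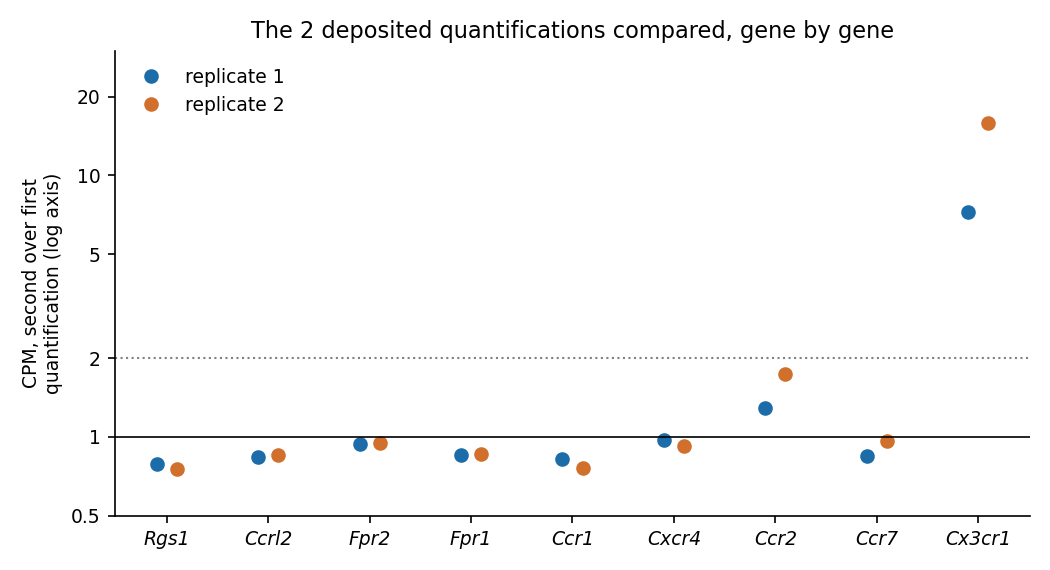
Counts scaled to library size (CPM) of the second quantification divided by those of the first, on a log axis, for each of the 9 genes in replicate 1 and replicate 2. The solid line marks equality and the dotted line 2-fold. Cx3cr1 stands at 7.22 and 15.9 while the other genes lie between 0.76 and 1.75.

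Rgs1 is not a receptor. Its product acts on the Gαi and Gαq subunits that the receptors switch on. Rgs1 (ENSMUSG00000026358.13, chr1:144242296-144249242, minus strand) was at 262.55 TPM in replicate 1, against 167.27 in replicate 2 (mean 215 ± 67.4 TPM, SD, n = 2), and had 23741 and 9487 expected counts. The deposited credibility intervals ran from 250.0 to 265.0 TPM in replicate 1 and from 153.9 to 168.6 TPM in replicate 2. By mean TPM it ranked 99 of 22028 protein-coding genes, in the top 0.449%. In the second quantification it was at 105.7 and 87.2 TPM, again the highest of the 9.

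Over all its transcripts, Rgs1 exceeded the rest of its family. Of 20 other RGS genes 6 were at 1 TPM or more in both libraries, and their median level was 0.095 TPM. The next highest was Rgs19, also a regulator of Gαi, at 10.99 TPM in replicate 1, against 19.57 in replicate 2. Rgs1 was 23.9 times Rgs19 in replicate 1 and 8.55 times in replicate 2. The protein-coding transcript Rgs1-208 alone, at 7.53 TPM in replicate 1 and 7.72 in replicate 2, lay below the Rgs19 gene. Rgs10 was at 4.08 and 8.22 TPM, Rgs3 at 7.62 and 3.64 TPM and Rgs2 at 3.48 and 2.72 TPM. Rgs1 held 89.2% of the summed TPM of the 21 RGS genes in replicate 1 and 81.1% in replicate 2, and 81.2% and 66.6% in the second quantification. The neighbouring genes on chromosome 1, Rgs13 and Rgs21, had 0 counts in both libraries and 1 and 0 counts. A count of 0 allows up to 0.102 CPM in replicate 1 and 0.169 CPM in replicate 2.

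Most Rgs1 RNA was assigned to transcripts that the annotation does not class as coding. Of its 9 annotated transcripts 4 are classed as targets of nonsense-mediated decay, the pathway that removes RNA with an early stop codon, 3 as retained-intron transcripts and 2 as protein-coding. The decay class held 47.7% of Rgs1 TPM in replicate 1 and 51.9% in replicate 2. The retained-intron class held 49.4% and 43.3%. The protein-coding class held 2.87% and 4.80%. By expected counts the decay class held 32.9% and 29.5%, the retained-intron class 61.5% and 62.8%, and the protein-coding class 5.61% and 7.65%. In the second quantification the protein-coding share of TPM was lower than in the first, at 1.49% in replicate 1 and 3.37% in replicate 2.

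The leading transcript in the first quantification was Rgs1-204, of the decay class, with 38.0% of Rgs1 TPM in replicate 1 and 44.7% in replicate 2. Rgs1-203, a retained-intron transcript of 414 bases, held 30.1% and 19.6%. By the second method Rgs1-203 led in replicate 1, with 34.8% against 33.0% for Rgs1-204, while Rgs1-204 led in replicate 2. Rgs1-205, a single exon of 5843 bases that runs through every intron from chr1:144243213-144249055, held 19.2% and 23.8%. The coding Rgs1-208 held 2.87% and 4.61%. TPM divides by length, and by expected counts the order differs: Rgs1-205 took 58.3% of the Rgs1 counts in replicate 1 and 61.1% in replicate 2, whereas Rgs1-203 took 3.15% and 1.74%. Most Rgs1 reads were thus placed on the unspliced form, while the highest level per length in the first quantification was that of Rgs1-204.

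**Figure D3:**
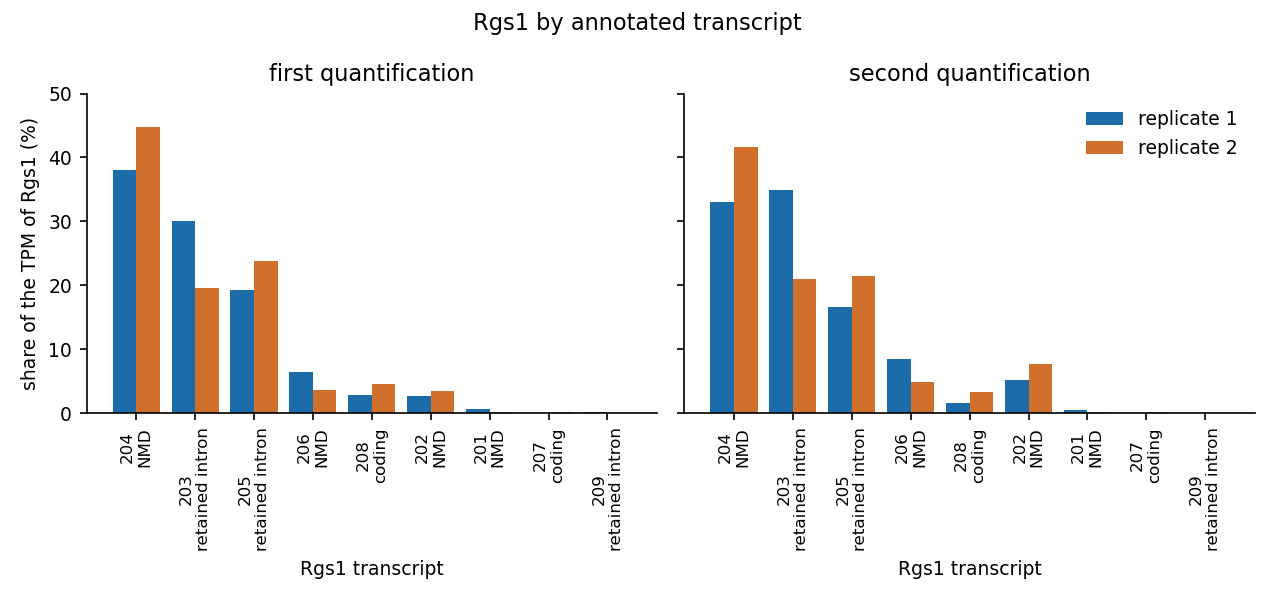
Share of the TPM of Rgs1 on each annotated transcript, in percent, by the first quantification (left) and the second (right), with 1 bar per library. Rgs1-204, Rgs1-203 and Rgs1-205 carry most of it in both libraries and both quantifications, and the coding Rgs1-208 stays below 5%.

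The sequences at the exon ends show where these forms part, but the forms also differ in length. Rgs1-208 has 3841 bases and Rgs1-204 has 1328, each in 5 exons. The part of this length difference in the split of reads between them was not tested. Lower case gives the last 15 bases of the exon, common to all, and capitals the 15 bases that follow in each transcript, read 5′ to 3′ on the minus strand. The first set continues from the end of exon 1 at chr1:144248901 and shows the join of Rgs1-204, the unspliced intron and the skipped exon.
Rgs1-204: aaggccaaagactttATAAGGGGAACTCTT
Rgs1-205: aaggccaaagactttGTAAGTTCCTTCAGT
Rgs1-207: aaggccaaagactttACTTTCTGCTGAAGA
The coding Rgs1-208 joins exon 1 to exon 2. Rgs1-204 takes 49 further bases (chr1:144248560-144248608) that lie before exon 2 within intron 1. Rgs1-205 runs on into the 341-base intron, whose first letters are the GT of a splice donor. Rgs1-207 passes over exon 2 and took 0 counts in replicate 1 and 1.6 in replicate 2. With the 49 extra bases the annotated reading frame of Rgs1-204 ends after 46 codons at TAA, against 209 codons before TGA in Rgs1-208. The second set continues from the end of exon 3 at chr1:144247906 and shows where Rgs1-203 leaves the coding form.
Rgs1-208: tccttgccaaccagaCAGGTCAAAATGTCT
Rgs1-203: tccttgccaaccagaGTAAGTATTCCTATC
Rgs1-203 keeps 111 bases of the intron after exon 3 (chr1:144247795-144247905) and ends there. No 31-base word of the Rgs1 transcripts occurred in another gene, so the split is among Rgs1 transcripts only.

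The share of Rgs1 on decay and retained-intron transcripts was 97.1% in replicate 1, against 95.2% in replicate 2 (mean 96.2% ± 1.37, SD, n = 2). Over 5968 protein-coding genes with such a transcript, a coding transcript and at least 1 TPM in both libraries, the median share was 30.8% in replicate 1 and 34.3% in replicate 2. A share over 50% in both libraries was found in 1150 of them (19.3%). This comparison, too, was added after the values were seen. The other 8 genes have no annotated transcript of these classes, so their unspliced RNA has no transcript of its own in the annotation. All 5 of Ccr1, Ccr2, Ccrl2, Cx3cr1 and Fpr1, and Fpr2-201, carry the coding sequence in 1 exon, against 2 coding exons in Cxcr4, 3 in Ccr7 and 5 in Rgs1-208.

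The receptors were then placed among 32 other receptors of the same kinds, which gives 40 with the 8 described here. Of the 8, Ccrl2 ranked 2nd and Fpr2 3rd by mean TPM, below C3ar1, the receptor for complement C3a, at 96.5 TPM in replicate 1, against 113.91 in replicate 2. Ptafr, the receptor for platelet-activating factor, at 64.23 and 58.65 TPM, and C5ar1, the receptor for complement C5a, at 55.94 and 61.69 TPM, lay next to them, and their libraries overlapped those of Ccrl2 and Fpr2. The level of C3ar1 was 1.22 times that of Fpr2 in replicate 1 and 1.89 times in replicate 2, but 0.974 and 1.59 times in the second quantification. Fpr1 ranked 6th, Ccr1 8th, Cxcr4 10th, Ccr2 11th, Ccr7 14th and Cx3cr1 21st.

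**Figure D4:**
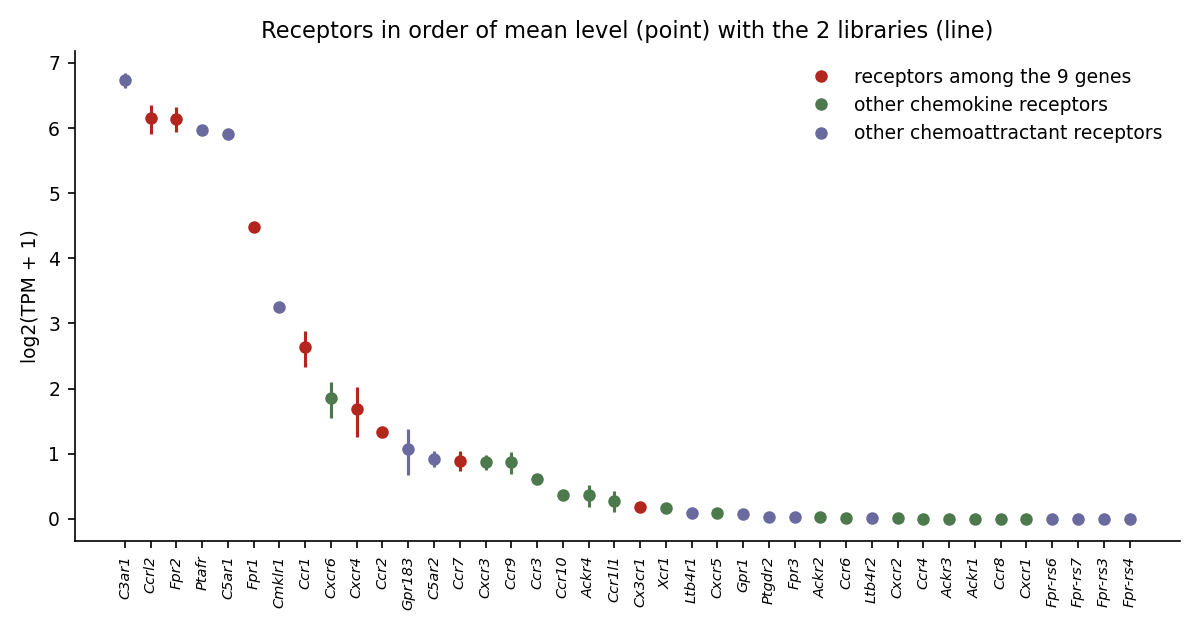
Mean level of 40 chemokine and chemoattractant receptors on the log2(TPM + 1) scale, highest on the left, with a line joining the 2 libraries. Red points are the 8 receptors of the set described here. Ccrl2 and Fpr2 stand among the first 5, beside the complement and platelet-activating factor receptors.

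Of the 17 other chemokine receptors listed, Cxcr6 alone reached 1 TPM in both libraries, and the median level of the 17 was 0.06 TPM. None of the 17 did so by the second method, where Cxcr6 was at 0.869 TPM in replicate 1, against 2.37 in replicate 2. Cxcr6, the receptor for Cxcl16, was at 1.92 and 3.31 TPM, Cxcr3 at 0.68 and 0.97 TPM and Ccr9 at 0.61 and 1.04 TPM. Ccr4, Ccr8, Cxcr1, Ackr1 and Ackr3 had 0 counts in both libraries. The genes next to the members were low: Ccr3 was at 0.52 and 0.54 TPM beside Ccr2, and Xcr1 at 0.10 and 0.14 TPM and Ccr1l1 at 0.35 and 0.08 TPM lay on either side of Ccr1. Of 15 other chemoattractant receptors 4 reached 1 TPM in both libraries, namely C3ar1, Ptafr, C5ar1 and Cmklr1, and the median over the 15 was 0.05 TPM. Fpr-rs3, Fpr-rs4, Fpr-rs6 and Fpr-rs7, relatives of the formyl peptide receptors, had 0 counts.

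Ligands of these receptors were uneven. The median of 17 ligand genes was 28.3 TPM, and 11 of them were at 1 TPM or more in both libraries. The 4 highest were Ccl5, Saa3, Ccl3 and Ccl4. Ccl5 was at 1267 TPM in replicate 1, against 1021 in replicate 2, Ccl3 at 397 and 411 TPM and Ccl4 at 535 and 268 TPM. Saa3, a serum amyloid A gene, was at 871 and 564 TPM. The Ccr7 ligands were at or near 0, with 0 counts for Ccl21a and Ccl21b in both libraries and 0 and 1 for Ccl19. Cxcl12, the ligand of Cxcr4, had 1 and 0 counts, and Cx3cl1, the ligand of Cx3cr1, had 9 and 14.

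The signalling genes downstream of the receptors were mostly detected. The median of 25 such genes was 14.3 TPM, and 23 of them were at 1 TPM or more in both libraries. Pik3r5, a regulatory subunit of the phosphoinositide kinase that Gβγ activates, was at 110.79 TPM in replicate 1, against 143.96 in replicate 2. Arrb2, the arrestin that uncouples and internalises receptors, was at 100.3 and 80.86 TPM. Dock2, an activator of Rac in leukocytes, was at 59.41 and 60.2 TPM, and Gnai2, the main Gαi subunit of leukocytes, at 50.39 and 67.54 TPM. Gnai1 had 0 counts in both libraries. Levels of 167.27 TPM and more for Rgs1, over all its transcripts, thus stood above those of Gnai2 in both libraries as RNA. The coding Rgs1-208 alone, at 7.53 TPM in replicate 1 and 7.72 in replicate 2, stood below Gnai2 over all Gnai2 transcripts. This sets a part of Rgs1 against the whole of Gnai2, whose coding share was not examined.

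The replicates were compared as log2 ratios of replicate 1 over replicate 2, from counts scaled by TMM (trimmed mean of M-values), with 95% exact binomial intervals that cover counting error only. Of the 9 genes, 6 were higher in replicate 1. So were 7305 of all 14831 genes that averaged 10 counts or more, and 6134 of the 11368 protein-coding genes among them. The median ratio of the 9 was 0.54, against -0.01 over the 14831 genes and 0.05 over the protein-coding ones. Rgs1 had a ratio of 0.77 (0.73 to 0.80), Fpr2 0.80 (0.70 to 0.89), Ccrl2 0.70 (0.64 to 0.77), Fpr1 0.45 (0.30 to 0.59), Ccr2 0.54 (0.23 to 0.85) and Ccr7 1.02 (0.42 to 1.67). Lower in replicate 1 were Ccr1 at -0.30 (-0.48 to -0.11), which was 0.02 in the second quantification, Cxcr4 at -0.43 (-0.84 to -0.02) and Cx3cr1 at -0.99 (-2.18 to 0.08). The 4 genes of highest level were thus all higher in replicate 1. With 1 library on each side there is no test, and starting amount and replicate cannot be told apart.

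A difference beyond 2-fold was found for 1 of the 9, Ccr7, and for 1984 of the 14831 genes (13.4%), of which 868 were higher in replicate 1 and 1116 higher in replicate 2. The ratio of Ccr7 lies at the limit and rests on 90 and 30 counts. With scaling to library totals Cx3cr1, lower in replicate 1, passed in place of Ccr7, as did 2165 of the 14831 genes (14.6%). In the second quantification Ccr7, Cx3cr1 and Rgs1 passed, as did 4016 of 23904 genes (16.8%).

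**Figure D5:**
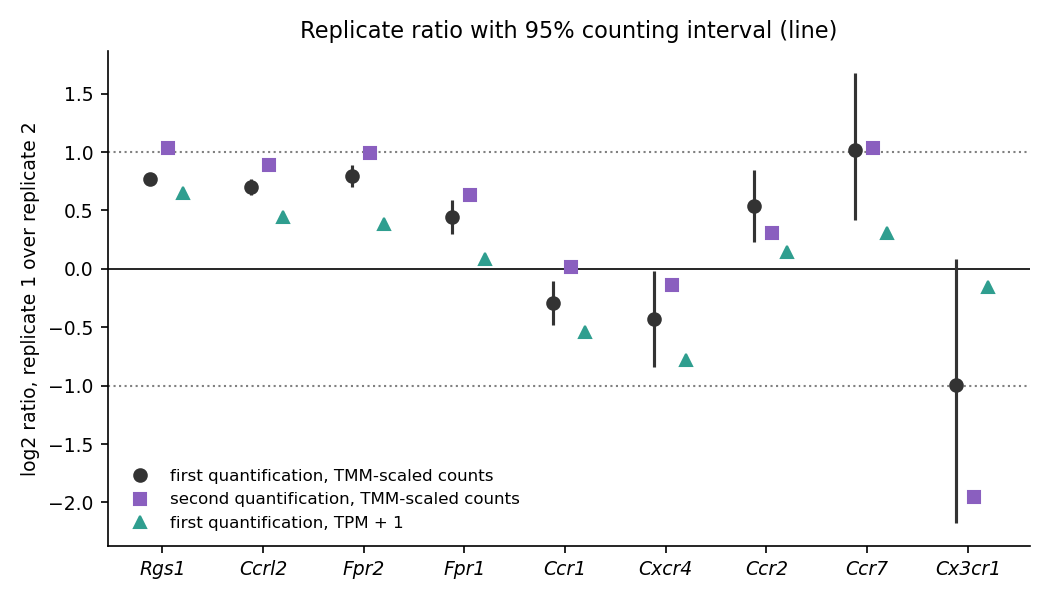
Log2 ratio of replicate 1 over replicate 2 for each of the 9 genes, from TMM-scaled counts of the first quantification with 95% counting intervals (circles), from the second quantification (squares) and from TPM + 1 (triangles). Dotted lines mark 2-fold. The intervals of Rgs1, Ccrl2, Fpr2, Fpr1, Ccr2 and Ccr7 lie above 0, and that of Cx3cr1 spans 0.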

How the data were processed

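Ribosomal RNA-depleted total RNA of 2 libraries was quantified by the authors on mm10 with GENCODE M21, per the labels and the feature names in the deposited files. The first deposited quantification gives, per the file headers, an expected count and TPM for each gene and transcript, with column names that RSEM writes, the percent of its gene's TPM for each transcript, and the bounds of a TPM credibility interval (the signal range within which the authors' model places TPM). The second, with column names that kallisto writes, gives an estimated count and TPM for each transcript, here added up over each gene's transcripts. Not given in the sources used here are the aligner, its version and the use of strand. TPM is scaled over all features, and protein-coding and long non-coding genes held 24.7% of it in replicate 1 and 34.0% in replicate 2, so rescaled values (TPM over those genes alone) were an alternative.

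Expected counts were rounded to whole numbers and scaled by TMM factors from edgeR 4.0.16 in R 4.3.3 (0.944 and 1.06), with a prior count of 0.5. Ratios were limited to genes averaging 10 counts or more. A ratio beyond 2-fold was counted as a difference. DESeq2 1.42.0 gave other size factors. Intervals are exact binomial (Clopper-Pearson, scipy 1.17.1). Floors take a count of 0 as at most 3 counts. Both cover counting error only. The ratio computation was tested on simulated data. Sequences and 31-base words came from the GENCODE M21 transcripts, and coding sequences were aligned with Biopython 1.88. The 9 genes and the 10 other lists were chosen with earlier results of these data known. Named were all 9 genes, the 4 highest of each list, listed neighbours on the chromosome, and for markers the highest and those at 0. Other genes listed at 0, the low ligands, Csrnp1 and Gm5966 were named after their values were seen. Some list genes and 1 transcript join are not reported here. No condition was compared, so no p-value was computed.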

Additional observations from a re-analysis of the deposited data

How the results depend on the processing

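The level of the 9 genes, taken as the median of their mean TPM, was 5.22. It was 2.40 in the second quantification and 17.6 after rescaling TPM to protein-coding and long non-coding genes, and 4.06 to 6.38 when either replicate was left out. Rgs1 was highest under each of these settings. Of the 9 genes, 7 were at 1 TPM or more in both libraries, 6 in the second quantification and 8 after rescaling. A limit of 5 TPM left 4, and leaving out either replicate gave 7 to 8. The median replicate ratio of 0.54 was 0.14 from TPM + 1 and 0.22 from TPM + 0.1, where the median of all genes moved to -0.22 and -0.34. Scaling to library totals moved the median of all genes to -0.18, and the second quantification moved it to 0.13. Ccr1 ran from -0.64 to 0.02 over the alternatives, and no other of the 9 changed direction. The count beyond 2-fold was 1, and 3 in the second quantification. The protein-coding share of Rgs1, a mean of 3.84% of its TPM, was 2.43% in the second quantification and 2.87% to 4.80% when either replicate was left out. Of 94 genes in the 5 other lists of receptors, ligands, RGS and signalling genes, 45 were at 1 TPM or more in both libraries, and 42 in the second quantification, 52 after rescaling and 45 to 48 with either replicate left out. Rescaling divides every TPM of a library by the same share and so raises all levels by construction. The cause of the other shifts was not tested. For single genes, 16 of 18 alternative levels, every rescaled one among them, lay more than 1 SD of the replicates from the first value. For transcripts, 9 of 17 alternative isoform shares did. Of 63 alternative ratios, 25 lay outside the counting interval. No paired analysis was possible because both libraries belong to 1 group. Depth limits Cx3cr1, with 13 and 18 counts, and Ccr7, with 90 and 30.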

Other observations

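Isoform shares of the remaining genes also shifted with the method. Ccrl2-202, the shortest Ccrl2 transcript at 569 bases, had 18.3% of the gene's level in replicate 1, against 12.0% in replicate 2, but 34.6% and 21.2% in the second quantification. Cxcr4-202, of 902 bases, held 0% in replicate 1 and 39.6%, on 21.55 expected counts, in replicate 2. In the second quantification it held 0% and 23.2%. Within Rgs1, the short Rgs1-203 and the decay-class Rgs1-206 both held a larger share in replicate 1 than in replicate 2: 30.1% against 19.6% for Rgs1-203 and 6.44% against 3.54% for Rgs1-206. The second quantification gave 34.8% against 20.9% for Rgs1-203 and 8.46% against 4.80% for Rgs1-206. The 2 libraries of 1 group allow no test of these differences.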
